A study of Oryza sativa with 18 samples.

Results

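The roots of zinc-deficient rice seedlings (-Zn, group ZMR) were compared with the roots of zinc-sufficient seedlings (+Zn, group ZPR) by mRNA sequencing. The comparison used 6 of the 18 libraries of the series, 3 for each group, chosen by their labels as root libraries of these treatments. All plants were Nipponbare, a japonica cultivar, and carried no transgene or mutation. ZPR seedlings were grown in nutrient solution with 1.5 µM ZnSO4, and ZMR seedlings had no ZnSO4 for 2 weeks before harvest at an age of 4 weeks. Each library was made from the pooled root systems of 3 seedlings, so it averages plants and all cell types of the root. Fewer cells of a type and less RNA per cell therefore cannot be told apart in any value given here.

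Plants take up zinc (Zn) largely through ZIP proteins, a family of membrane transporters that carry divalent metals into the cytosol. Grasses also take up iron (Fe) as a complex with phytosiderophores. These chelators, the mugineic acids, are made from methionine by way of nicotianamine, secreted into the soil, and taken back with the metal by yellow stripe-like (YSL) transporters. Rice in addition takes up free ferrous iron through ZIP proteins named IRT, which can carry Zn as well.

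The deposited tables give each gene locus and each isoform in FPKM, a fragment count scaled to transcript length and to the mapped fragments of the library. At 1 FPKM the coverage was between 6.0 and 7.12 reads per base in the 6 libraries. Of 34716 loci, 20491 reached 0.5 FPKM in 3 or more libraries and were tested. A differentially expressed gene (DEG) had a change of at least 1 on the log2(FPKM + 0.5) scale and a limma adjusted p (Benjamini-Hochberg over all tested loci) of at most 0.05. The change on this scale understates that of loci with low FPKM. The silicon transporters Lsi1 and Lsi2, which mark roots, were at 491 to 1200.3 FPKM in all 6 libraries. The root marker RCc3 has 1 exon and was listed at 0 in 4 of the 6, and OsNRT2.1 was at 0 in all 6, so that a listed 0 need not mean an absent transcript. Of the tested loci with 1 exon, 33.8% were at 0 in a library while another library of that group was above 1 FPKM, against 1.55% of the loci with more exons. The summed FPKM of 15 green tissue markers ranged from 159 to 248 in ZPR and from 194 to 297 in ZMR. That of 50 markers of dividing cells ranged from 398 to 919.7 and from 526 to 740.0, with the highest value of each group in its first replicate. The part of these marker levels in the results below was not tested.

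Few root loci passed the test between the treatments. A total of 22 loci (0.107% of those tested) were up-regulated in ZMR/ZPR and 26 (0.127%) were down-regulated. The 6 values did not overlap between the groups in any of these 48 loci, as in 4.54% of all tested loci in the upward and 4.84% in the downward direction. At an unadjusted p of at most 0.05, 533 loci (2.6%) were higher and 500 (2.44%) lower, so that 5.04% of the tested loci passed a threshold that lets 5% through by its construction. The up-regulated loci had a median of 0.856 FPKM in ZPR and 18.2 in ZMR, and 12 of the 22 had a mean under 1 FPKM in ZPR. The down-regulated loci had a median of 35.2 FPKM in ZPR and 8.26 in ZMR, and 7 of the 26 had a mean of at least 100 FPKM in ZPR. A ZPR mean above 5.15 FPKM, the median over all tested loci, was found in 8 of the 22 that rose and 20 of the 26 that fell. The ZPR values also enter the call in each direction, so this contrast is partly set by the selection.

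**Figure D1:**
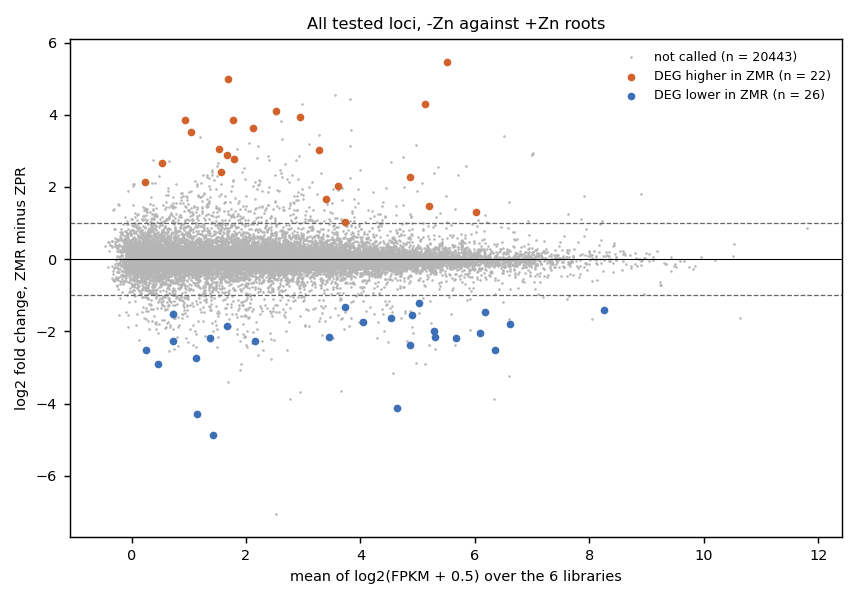
Each point is 1 of the 20491 tested loci, placed by its mean log2(FPKM + 0.5) over the 6 root libraries (x axis) and its log2 fold change, ZMR minus ZPR (y axis), with dashed lines at a change of 1 in each direction. The 22 DEGs higher in ZMR lie mostly at low means, the 26 lower ones reach further to the right, and 84 uncalled loci rose and 56 fell by 2 or more on this scale.

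These counts depended on the fit. With the replicate number as a block, which leaves 2 residual degrees of freedom, 2 loci were called higher and 0 lower by limma, with 746 and 678 at an unadjusted p of at most 0.05. The calls that remained were the prolyl endopeptidase Os04g0561500 (adjusted p = 0.0250) and the OsZIP9/OsZIP5 locus (0.0369). The other 46 had adjusted p-values from 0.0546 to 0.209 with the block, and in all 36 of the 48 were at 0.1 or below in that fit. Leaving out 1 library changed both counts by more than 1.5 times for ZMR 2 (12 higher, 6 lower), ZMR 3 (11 and 11) and ZPR 3 (10 and 3). For ZPR 1 (25 and 14) and ZPR 2 (22 and 10) only the lower count changed by that much. Without ZMR 1 they were 16 and 19. No called locus changed direction in any of 22 alternatives.

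Among the up-regulated loci were several of the ZIP family. Of 15 tested loci on the list of zinc transporters, 4 were up-regulated (26.7%, beside 0.107% of all tested loci) and 0 were down-regulated by limma. At an unadjusted p of at most 0.05, 5 were higher (33.3%) and 2 lower (13.3%), beside 2.6% and 2.44% of all tested loci. The GO term zinc ion transmembrane transporter activity held the same count, with 4 of 26 tested loci higher and 0 lower. At an unadjusted p of at most 0.05, 6 loci of this term were higher (23.1%) and 4 lower (15.4%). Its median log2 fold change was -0.0258. The 4 up-regulated loci of the list carry OsZIP4, OsZIP8, OsZIP10 and the neighbours OsZIP9 and OsZIP5, which the deposited table joins into a single locus. Every one of them was at or under 3.08 FPKM in all ZPR libraries and at or above 14.1 FPKM in all ZMR libraries.

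The joined locus Os05g0472400;Os05g0472700 (OsZIP9 and OsZIP5, chromosome 5, 23201237 to 23219318 in IRGSP-1.0) was at 1.64, 1.61 and 1.20 FPKM in ZPR 1 to 3 and at 35.3, 29.1 and 25.0 FPKM in ZMR 1 to 3. OsZIP9 takes up Zn into rice roots. The mean rose 20.1-fold, from 1.48 ± 0.247 to 29.8 ± 5.17 FPKM (SD, n = 3), a log2 fold change of 3.93 ± 0.18 (SE; limma adjusted p = 0.00170). It was called under all 22 alternatives.

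The isoforms of this locus do not separate the neighbours. An assembled transcript of 6665 bases that spans both genes was at 2.50, 2.47 and 1.36 FPKM in ZPR and at 43.9, 39.3 and 35.8 in ZMR. It held 39.4% of the summed isoform FPKM in ZPR 3 and between 56.2% and 90.1% in the other libraries. Shorter isoforms that end within the OsZIP9 side summed, with the annotated OsZIP9 transcript, to between 0.134 and 0.780 FPKM in ZPR and to 33.9, 19.2 and 12.0 in ZMR. The annotated OsZIP5 transcript stayed at or under 1.31 FPKM in every library and overlapped between the groups (0.0379, 0.137 and 1.31 in ZPR, 0.213, 0.540 and 0.342 in ZMR). The rise thus stood in the spanning and the OsZIP9-side isoforms, and how much of the spanning one came from OsZIP5 cannot be told apart. Fold changes of isoforms were not tested.

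**Figure D2:**
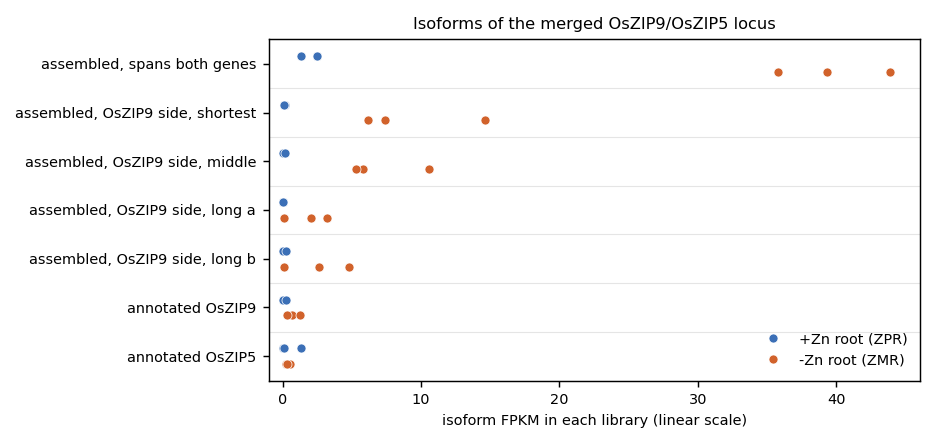
FPKM of the 7 isoforms of the OsZIP9/OsZIP5 locus (x axis, linear) in each of the 3 ZPR and 3 ZMR root libraries, 1 point per library and 1 line per isoform. The spanning isoform sits between 35.8 and 43.9 FPKM in ZMR, and the annotated OsZIP5 transcript at or under 1.31 FPKM in all 6.

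OsZIP10 (Os06g0566300, chromosome 6) had 0.749, 0.904 and 0.984 FPKM in ZPR and 32.3, 19.6 and 20.0 in ZMR. This was a 27.3-fold rise of the mean (log2 fold change 4.11 ± 0.23 SE, limma adjusted p = 0.00387, 0.0706 with the replicate block). A locus on the opposite strand, Os06g0566201, covers nearly the same stretch (21824087 to 21826731, against 21824110 to 21827066) and was also a DEG, at 0.426, 0.394 and 0.374 FPKM in ZPR and 23.5, 10.0 and 7.94 in ZMR (3.84 ± 0.39 SE, adjusted p = 0.0339, 0.107 with the block). Both loci were highest in ZMR 1. The library strand is not stated, so reads of the pair cannot be told apart.

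OsZIP8 (Os07g0232800, chromosome 7) had 0.487, 0.855 and 0.909 FPKM in ZPR and 16.2, 14.1 and 14.3 in ZMR. Its mean rose 19.8-fold (log2 fold change 3.63 ± 0.19 SE, limma adjusted p = 0.00305, 0.0694 with the block), with the narrowest spread in ZMR among the 4 (SD of 1.15 FPKM). OsZIP4 (Os08g0207500, chromosome 8), a Zn transporter of rice, had 3.08, 2.99 and 2.63 FPKM in ZPR and 37.5, 19.2 and 27.6 in ZMR. Its mean rose 9.70-fold (3.03 ± 0.25 SE, adjusted p = 0.0164, 0.0865 with the block). OsZIP4 thus started from the highest level of the 4 and had the smallest fold. The locus Os08g0207401 overlaps it on the other strand and had 0, 0.0437 and 0 FPKM in ZPR and 0.581, 1.15 and 1.18 in ZMR. It did not pass (1.49 ± 0.25 SE, adjusted p = 0.137), its groups did not overlap, and reads of this pair cannot be told apart either.

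OsZIP7 was the next in order, at 14.8, 11.6 and 13.1 FPKM in ZPR and 29.9, 21.9 and 22.3 in ZMR, and did not pass (0.88 ± 0.17 SE, adjusted p = 0.227). Its groups did not overlap. The iron transporter OsIRT2 was lower, at 1.58, 1.78 and 2.46 FPKM in ZPR and 0.0408, 0.0437 and 0.368 in ZMR, and did not pass either (-1.93 ± 0.28 SE, adjusted p = 0.107). OsIRT1, the main ferrous iron transporter of rice roots, had 2.91, 132 and 110.1 FPKM in ZPR and 1.19, 32.7 and 59.2 in ZMR. Replicate 1 was low in both groups, and the adjusted p of OsIRT1 was 1 in the fit and 0.437 with the block. The remaining 8 tested ZIP loci had overlapping groups, among them OsZIP1, OsZIP2 and OsZIP6. The annotated OsZIP3 locus was too low to be tested (at or under 0.565 FPKM in all 6 libraries), and the tested locus of that gene number (Os04g0613000) lies on the other strand and has no description. Those with the highest means were Os02g0196000, at 15.3, 20.7 and 18.7 FPKM in ZPR and 11.3, 15.4 and 12.5 in ZMR (adjusted p = 0.914), Os05g0316100, between 10.2 and 24.8 FPKM over all 6 libraries, and Os08g0467400, between 14.1 and 18.3 FPKM.

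**Figure D3:**
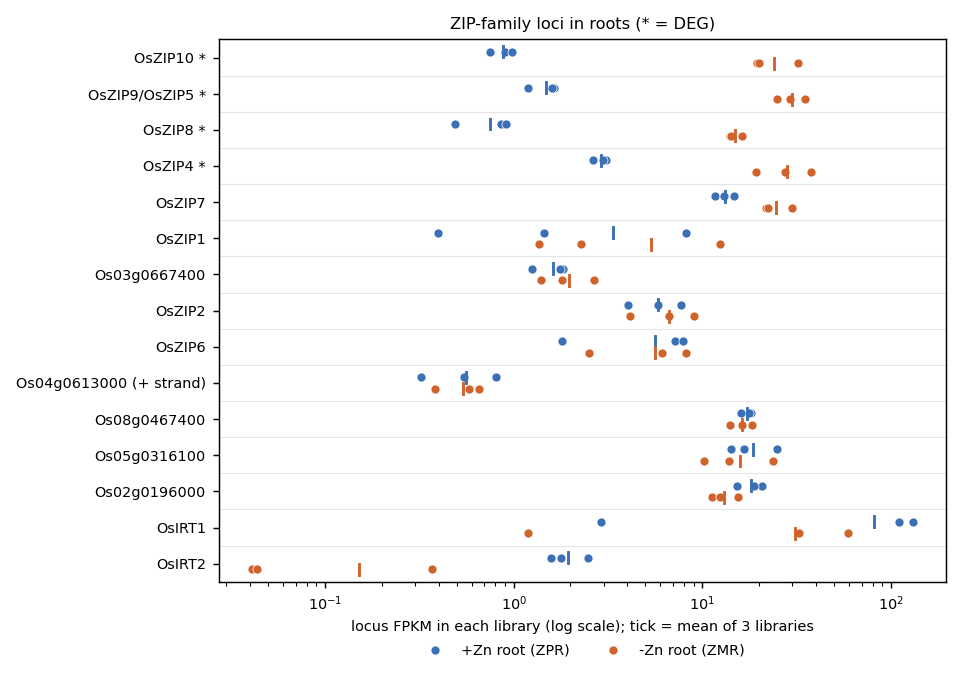
FPKM of the 15 tested ZIP-family loci (x axis, log scale) in each ZPR and ZMR root library, ordered from the highest to the lowest log2 fold change. Points are libraries, ticks are means of 3, and stars mark DEGs. The 4 starred loci sit at or under 3.08 FPKM in ZPR and at or above 14.1 FPKM in ZMR, while OsIRT1 is spread from 2.91 to 132 FPKM within ZPR.

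Other metal carriers, among them copper pumps such as OsHMA4, did not follow the up-regulated ZIP loci. Of 16 tested heavy metal ATPases and cation efflux proteins, which pump or exchange metals out of the cytosol, none was a DEG. At an unadjusted p of at most 0.05, 1 was higher (6.25%) and 2 were lower (12.5%), beside 2.6% and 2.44% of all tested loci. OsHMA2, which loads Zn for transport to the shoot, had 102, 88.3 and 80.5 FPKM in ZPR and 71.8, 73.4 and 51.2 in ZMR (-0.47 ± 0.19 SE, limma adjusted p = 0.960). OsHMA1 had 3.66, 3.99 and 3.29 FPKM in ZPR and 7.09, 5.18 and 4.38 in ZMR (adjusted p = 0.949). OsHMA3, the vacuolar pump next to OsZIP8 in gene number, was between 9.48 and 12.7 FPKM in all 6 libraries. Metallothioneins, small cysteine-rich proteins that bind Zn and copper, gave 0 DEGs among 12 tested loci by limma. At an unadjusted p of at most 0.05, 1 of the 12 was higher (8.33%) and 2 were lower (16.7%).

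The type 1 metallothioneins on chromosome 12 are closely related neighbours, between which aligned reads can be spread, so their values are uncertain one by one. Os12g0568500 had 2599, 2355 and 3562 FPKM in ZPR and 795, 1806 and 497 in ZMR (adjusted p = 0.708). Os12g0571100, the most abundant, had 1588, 2496 and 4652 FPKM in ZPR and 7357, 4553 and 3397 in ZMR (adjusted p = 1). Os12g0568200 had 44.5, 37.4 and 80.4 FPKM in ZPR and 122, 112 and 84.4 in ZMR (adjusted p = 0.706). Libraries of 1 group thus differed several-fold within this cluster. Members outside the cluster were also uneven among libraries. Os03g0288000 had 276, 137 and 185 FPKM in ZPR and 92.5, 79.8 and 127 in ZMR, while the joined locus Os11g0704550;Os11g0704500 was at 949 and 1198 FPKM in ZMR 1 and ZMR 2 but at 22.6 in ZMR 3, beside 45.3, 20.1 and 23.1 in ZPR. Neither passed (adjusted p = 0.759 and 1). The other members with a mean of at least 10 FPKM (Os12g0571000, Os12g0567800, Os12g0570700, Os01g0149800, Os01g0200700 and Os05g0111300) had adjusted p-values of 0.999 or 1, and only in Os12g0571000, which reached 459.5 FPKM in ZMR 1, did the groups not overlap.

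The down-regulated loci held several genes of iron uptake. On the list of phytosiderophore transport, 3 of 6 tested loci were down-regulated (50%, beside 0.127% of all) and 0 were up-regulated by limma (0 also at an unadjusted p of at most 0.05), with a median log2 fold change of -1.11 beside 0.00 over all loci. OsYSL15 (Os02g0650300, chromosome 2), which takes up the Fe(III) phytosiderophore complex into the root, had 189, 163 and 238 FPKM in ZPR and 35.0, 31.8 and 34.1 in ZMR. Its level was 5.85-fold lower in ZMR (log2 fold change -2.52 ± 0.17 SE, limma adjusted p = 0.00692, 0.0694 with the replicate block), and its ZMR pools lay close together. TOM1 (Os11g0134900), which secretes deoxymugineic acid, had 113, 139 and 165 FPKM in ZPR and 30.1, 35.4 and 34.0 in ZMR, 4.19-fold lower (-2.04 ± 0.17 SE, adjusted p = 0.0173, 0.0706 with the block). ENA1 (Os11g0151500), a transporter that releases nicotianamine, had 30.3, 30.9 and 28.2 FPKM in ZPR and 10.5, 8.38 and 7.03 in ZMR, 3.45-fold lower (-1.75 ± 0.17 SE, adjusted p = 0.0268, 0.0865 with the block). In all 3 loci every ZMR pool was below every ZPR pool. Os06g0695800, which the list also holds, is described as an ATP binding cassette transporter of aluminium tolerance. It was at 13.7 ± 2.67 FPKM in ZPR and 9.70 ± 0.700 in ZMR (SD, n = 3) and did not pass (adjusted p = 0.921). This locus counts among the 6 tested, and among the 4 that were lower at an unadjusted p of at most 0.05.

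The tested loci on the list of phytosiderophore synthesis, 9 of its 13 members, did not pass. OsNAS1 was the only nicotianamine synthase among them, so other genes of that step were not examined. None of 9 tested loci on the list was a DEG by limma, and at an unadjusted p of at most 0.05, 2 were lower (22.2%, beside 2.44% of all tested loci) and 0 higher (2.6% of all). OsDMAS1, which reduces the last precursor to deoxymugineic acid, had 78.9, 127 and 160.4 FPKM in ZPR and 21.8, 38.1 and 32.4 in ZMR (-1.95 ± 0.32 SE, adjusted p = 0.137). OsNAAT1, the aminotransferase before it, had 297, 238 and 326 FPKM in ZPR and 126, 155 and 142 in ZMR (-1.02 ± 0.17 SE, adjusted p = 0.150). For both the 2 groups did not overlap. OsNAS1, a nicotianamine synthase gene of 1 exon, had 985, 31.2 and 19.1 FPKM in ZPR and 246, 0 and 12.4 in ZMR, lower in ZMR under each replicate number but far apart within each group (adjusted p = 1, 0.726 with the block). OsYSL16, a transporter of metal nicotianamine complexes that the list also holds, was at 41.2 ± 6.99 FPKM in ZPR and 48.7 ± 8.47 in ZMR (SD, n = 3; adjusted p = 1). A further transporter on the list, Os01g0829900, had a mean of 0.646 FPKM in ZPR and 0.641 in ZMR. The other tested members are annotated as similar to nicotianamine or tyrosine/nicotianamine aminotransferases.

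Methionine for this pathway is recycled from methylthioadenosine, which leaves adenine to be reclaimed. On the list of methionine salvage and S-adenosylmethionine synthesis, 0 of 12 tested loci were DEGs by limma, and at an unadjusted p of at most 0.05, 4 were lower (33.3%, beside 2.44% of all tested loci) and 0 higher (2.6% of all). Os11g0484000, annotated as a class II aldolase/adducin family protein and listed as a salvage enzyme, had 367, 508 and 565 FPKM in ZPR and 134, 161 and 149.8 in ZMR (-1.67 ± 0.20 SE, adjusted p = 0.0595). Os11g0216900, similar to the barley salvage protein IDI2, had 59.97, 81.7 and 104 FPKM in ZPR and 20.2, 32.7 and 32.5 in ZMR (-1.51 ± 0.28 SE, adjusted p = 0.188). Os06g0112200, a phosphorylase family protein, had 29.7, 47.5 and 75.2 FPKM in ZPR and 13.2, 18.7 and 20.0 in ZMR (adjusted p = 0.424). The joined locus Os04g0669600;Os04g0669700;Os04g0669800, which holds a salvage gene, had 41.8, 66.8 and 60.6 FPKM in ZPR and 24.6, 21.7 and 27.2 in ZMR (adjusted p = 0.167). In none of these did the groups overlap.

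Outside that list, enzymes that use the by-products adenine and formate, or that make the donor for the adenine reaction, were DEGs. Adenine phosphoribosyltransferase (Os12g0589100), which returns adenine to AMP, was the most abundant of all the called loci, at 488, 447 and 563 FPKM in ZPR and 180.3, 182 and 200.4 in ZMR. It was 2.66-fold lower (-1.41 ± 0.15 SE, limma adjusted p = 0.0383, 0.0978 with the block). Ribose-phosphate pyrophosphokinase 4 (Os02g0714600), which makes the ribose phosphate donor of that reaction, had 115, 105 and 141 FPKM in ZPR and 43.6, 41.8 and 43.0 in ZMR (-1.47 ± 0.14 SE, adjusted p = 0.0301, 0.0963 with the block). Formate dehydrogenase (Os06g0486800), which oxidizes the formate that salvage releases, had 169.9, 164 and 215 FPKM in ZPR and 46.1, 53.9 and 55.4 in ZMR (-1.80 ± 0.16 SE, adjusted p = 0.0206, 0.0865 with the block). The 3 enzymes were thus 2.66-, 2.82- and 3.53-fold lower in the mean, with no overlap. Os04g0669900, a neighbour of the joined salvage locus on chromosome 4, was also down-regulated, from 49.4 ± 5.35 to 20.9 ± 0.916 FPKM (SD, n = 3; adjusted p = 0.0339, 0.145 with the block).

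A metal transporter and 1 regulator of the iron response were also down-regulated. OsNRAMP1 (Os07g0258400), a divalent metal transporter of the plasma membrane, had 132, 88.7 and 109 FPKM in ZPR and 26.2, 25.3 and 19.5 in ZMR, 4.64-fold lower (-2.18 ± 0.20 SE, limma adjusted p = 0.0220, 0.0865 with the block). OsIRO2 (Os01g0952800), the bHLH factor that activates phytosiderophore genes, had 64.5, 65.6 and 107 FPKM in ZPR and 17.7, 18.5 and 20.9 in ZMR, 4.16-fold lower (-1.99 ± 0.22 SE, adjusted p = 0.0418, 0.0865 with the block). It was the single DEG among 10 tested iron regulators and storage genes (10%, beside 0.127% of all tested loci). At an unadjusted p of at most 0.05, 4 of the 10 were lower (40%) and 1 was higher (10%). The shares over all tested loci were 2.44% and 2.6%. Of the others on that list, the ubiquitin ligases OsHRZ1 and OsHRZ2 and the repressor OsIRO3, which restrain the iron response, were all lower without passing.

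OsHRZ1 had 30.4, 35.9 and 33.9 FPKM in ZPR and 12.4, 16.0 and 15.5 in ZMR (-1.17 ± 0.14 SE, limma adjusted p = 0.0619). OsHRZ2 had 13.8, 12.9 and 11.8 FPKM in ZPR and 7.66, 8.10 and 7.41 in ZMR (-0.70 ± 0.12 SE, adjusted p = 0.160). OsIRO3 had 16.0, 24.0 and 28.2 FPKM in ZPR and 5.97, 9.49 and 5.42 in ZMR (-1.64 ± 0.29 SE, adjusted p = 0.167). Activator, repressor and ligase transcripts were therefore all lower in every ZMR pool than in any ZPR pool. IDEF1, an upstream regulator that binds metals, was between 7.61 and 9.38 FPKM in all 6 libraries, and IDEF2 overlapped between the groups. The ferritins OsFER1 and OsFER2, which store iron, did not pass (adjusted p = 0.979 and 1), and OsFER1 was the 1 member of the list that was higher at an unadjusted p of at most 0.05.

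MIR (Os12g0282000), a mitochondrial protein of rice known from its response to iron deficiency and labelled as hypothetical in the table, had 91.1, 71.1 and 88.9 FPKM in ZPR and 22.3, 18.3 and 14.5 in ZMR. It was 4.55-fold lower (-2.17 ± 0.19 SE, limma adjusted p = 0.0220, 0.0865 with the block). Os03g0751100, annotated as a glutathione transporter of the oligopeptide family, had 47.2, 50.4 and 54.9 FPKM in ZPR and 13.8, 19.7 and 18.3 in ZMR, 2.95-fold lower (adjusted p = 0.0347, 0.0865 with the block). The down-regulated loci on the iron lists (OsYSL15, TOM1, ENA1 and OsIRO2) were thus joined by iron-related loci outside them. These were grouped after their values were seen.

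**Figure D4:**
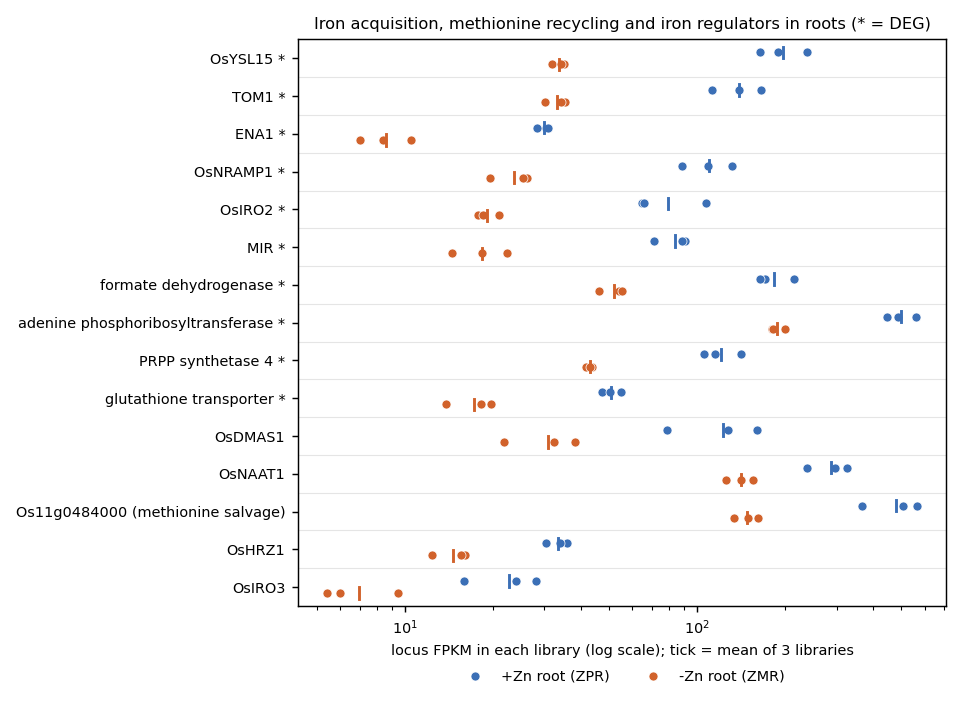
FPKM of 15 loci of iron acquisition, methionine recycling and iron regulation (x axis, log scale) in each ZPR and ZMR root library. Points are libraries, ticks are means of 3, and stars mark DEGs. In each of the 15 loci all ZMR points lie left of all ZPR points, including the 5 loci that did not pass the threshold. The loci were chosen for display after their values were seen, and other members of the same lists overlapped between the groups (OsNAS1, OsYSL16, IDEF1) or were higher in ZMR (OsFER1).

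The up-regulated loci of smallest p included genes outside metal transport. Os04g0561500, similar to prolyl endopeptidase, a protease that cuts small peptides after proline, was at 7.16, 7.84 and 7.14 FPKM in ZPR and 167, 155 and 146 in ZMR. It had the smallest adjusted p of all loci, with a 21.1-fold rise (log2 fold change 4.31 ± 0.11 SE, limma adjusted p = 0.000290), and was called under all 22 alternatives. Os01g0249200, annotated as similar to Nectarin 1, a germin-like protein with manganese superoxide dismutase activity, had 7.19, 7.44 and 4.75 FPKM in ZPR and 259, 296 and 355 in ZMR. Its mean rose 46.9-fold, the largest fitted change among the up-regulated loci (5.46 ± 0.21 SE, adjusted p = 0.00159, 0.0546 with the block). The F-box-like locus Os04g0280500 had 0.0514, 0.0664 and 0.0904 FPKM in ZPR and 24.1, 14.6 and 15.3 in ZMR (4.99 ± 0.23 SE, adjusted p = 0.00170, 0.0546 with the block). F-box proteins select targets for ubiquitination. Its ratio of means is 259.5, but the ZPR values are close to 0, so the size of the fold is poorly known.

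No other superoxide dismutase was a DEG. Its relative Os01g0284500, also annotated as Nectarin 1, was between 962 and 1555 FPKM in all 6 libraries (adjusted p = 1). The Cu-Zn superoxide dismutase Os07g0665200, a Zn-containing enzyme that removes superoxide, had 237, 165 and 233 FPKM in ZPR and 115, 94.2 and 95.1 in ZMR (-1.05 ± 0.19 SE, limma adjusted p = 0.180). The second cytosolic one, Os03g0351500, had 244, 358 and 387 FPKM in ZPR and 167, 233 and 246 in ZMR (adjusted p = 0.989). The manganese superoxide dismutase Os05g0323900 had 41.5, 49.4 and 51.8 FPKM in ZPR and 107, 47.1 and 91.4 in ZMR, so that ZMR 2 lay within the ZPR range and the other ZMR libraries above it (adjusted p = 1). Carbonic anhydrases, which also hold Zn, included no DEG by limma and no locus with an unadjusted p of at most 0.05.

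Hemoglobins moved in both directions. Plant hemoglobins of this class bind oxygen and remove nitric oxide. Os06g0591600, similar to hemoglobin Hb2, had 45.1, 35.9 and 41.6 FPKM in ZPR and 107, 99.6 and 97.7 in ZMR, 2.48-fold higher (1.31 ± 0.13 SE, limma adjusted p = 0.0310, 0.0865 with the block). The neighbouring non-symbiotic genes rHb4 (Os03g0234100) and rHb3 (Os03g0234000) on chromosome 3 fell, rHb4 from 4.89, 6.07 and 4.45 FPKM in ZPR to 0.309, 0.277 and 0.456 in ZMR (-2.73 ± 0.19 SE, adjusted p = 0.00852, 0.0865 with the block). Values of rHb3 were 3.64, 2.55 and 3.38 in ZPR and 0.346, 0.363 and 0.0878 in ZMR (-2.28 ± 0.24 SE, adjusted p = 0.0347, 0.165 with the block). These copies are similar in sequence to the far more abundant rHb1 (Os03g0233900) and rHb2 (Os03g0226200), so that reads could be spread among them. Of those, rHb2 was at 138 ± 31.8 FPKM in ZPR and 59.6 ± 1.39 in ZMR (SD, n = 3; adjusted p = 0.137), and rHb1 overlapped between the groups. Alcohol dehydrogenase and pyruvate decarboxylase genes, which share the list with the hemoglobins, included no DEG by limma and no locus with an unadjusted p of at most 0.05.

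Copper proteins leaned upward. Of 50 tested loci on this list, which holds laccases, plastocyanin-like cupredoxins and ascorbate oxidases, 8 were higher at an unadjusted p of at most 0.05 (16%, beside 2.6% of all tested loci) and 0 were lower, and the median log2 fold change was 0.23. The single DEG was Os07g0112700, a cupredoxin domain protein, at 17.5, 9.40 and 12.3 FPKM in ZPR and 62.9, 60.9 and 66.5 in ZMR. It rose 4.86-fold (2.28 ± 0.23 SE, limma adjusted p = 0.0310, 0.0985 with the block). The laccase Os03g0273200, of a family that polymerizes lignin, had 14.2, 7.79 and 10.2 FPKM in ZPR and 37.4, 43.1 and 48.1 in ZMR (1.98 ± 0.23 SE) and lay just outside the threshold. The ascorbate oxidase Os05g0458300 had 8.53, 7.17 and 8.72 FPKM in ZPR and 13.2, 19.3 and 23.1 in ZMR (adjusted p = 0.242).

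Cell wall and lignin genes gave further up-regulated loci. Os10g0334500, a dirigent-like protein, one of a family that steers the coupling of phenolic radicals, had 0.564, 0.864 and 0.613 FPKM in ZPR and 8.67, 9.52 and 6.62 in ZMR, a 12.2-fold rise (2.89 ± 0.20 SE, limma adjusted p = 0.00852, 0.0694 with the block). Os03g0201901, a glycoside hydrolase of family 10, which includes xylanases, had 20.2, 22.3 and 22.2 FPKM in ZPR and 51.2, 72.7 and 60.3 in ZMR (1.47 ± 0.16 SE, adjusted p = 0.0347, 0.0865 with the block). Among 54 tested expansins and xyloglucan enzymes, which loosen the wall, 0 were DEGs by limma. At an unadjusted p of at most 0.05, 5 were higher (9.26%) and 2 lower (3.7%), beside 2.6% and 2.44% of all tested loci. Xyloglucan endotransglycosylases stood on both sides, Os04g0604900 at 4.29, 2.43 and 4.89 FPKM in ZPR and 18.03, 21.2 and 15.6 in ZMR (adjusted p = 0.0602) and Os02g0280200 at 37.4, 43.5 and 42.1 in ZPR and 4.98, 10.1 and 12.6 in ZMR (adjusted p = 0.113). Of 77 class III peroxidases, 0 were DEGs by limma, with 8 higher (10.4%) and 5 lower (6.49%) at that threshold.

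Transport of nitrogenous solutes changed in single genes of both directions. Os10g0469900, similar to the peptide transporter PTR2, had 0.931, 0.793 and 0.634 FPKM in ZPR and 6.32, 5.71 and 6.81 in ZMR, a 7.99-fold rise (2.40 ± 0.17 SE, limma adjusted p = 0.00852, 0.0865 with the block). Os01g0871600, similar to PTR2-B of the same family, had 21.4, 18.9 and 28.5 FPKM in ZPR and 5.85, 4.06 and 4.19 in ZMR, 4.88-fold lower (-2.17 ± 0.21 SE, adjusted p = 0.0310, 0.122 with the block). Os02g0788800, of the amino acid transporter family, had 19.6, 21.3 and 20.2 FPKM in ZPR and 7.19, 7.28 and 9.20 in ZMR (-1.32 ± 0.14 SE, adjusted p = 0.0347, 0.125 with the block). On the list of nitrogen uptake and assimilation, 0 of 36 tested loci were DEGs by limma. At an unadjusted p of at most 0.05, 3 were higher (8.33%) and 4 lower (11.1%), beside 2.6% and 2.44% of all tested loci.

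Signalling and regulatory genes were few. The protein kinase Os01g0655500 fell from 36.2, 43.5 and 42.2 FPKM in ZPR to 12.2, 13.2 and 12.4 in ZMR (-1.64 ± 0.12 SE, limma adjusted p = 0.00879, 0.0706 with the block). Os11g0586200, similar to the calcium sensor calmodulin, fell from 9.53, 8.40 and 9.88 FPKM to 1.11, 1.41 and 2.21 (-2.27 ± 0.23 SE, adjusted p = 0.0315, 0.0985 with the block). Os04g0304400, a MADS-box transcription factor similar to AGL16-II, rose from 0.531, 0.459 and 0.531 FPKM to 12.3, 6.11 and 6.40 (3.05 ± 0.29 SE, adjusted p = 0.0268, 0.0963 with the block). It was the single DEG on the lists of transcription factor families, which were matched by description and so do not hold the bHLH factor OsIRO2 described above, a conserved hypothetical protein in the table. The matching also let in other proteins, such as the lipid phosphate phosphatase Os08g0359100 on the AP2/ERF list. None of the 49 WRKY, 48 NAC, 36 bZIP or 34 AP2/ERF loci tested was a DEG by limma. At an unadjusted p of at most 0.05, 6 WRKY loci were higher (12.2%) and 3 lower (6.12%), beside 2.6% and 2.44% of all tested loci. The counts higher and lower were 3 (6.25%) and 0 for NAC, 1 (2.78%) and 0 for bZIP, and 0 and 1 (2.94%) for AP2/ERF. The WRKY locus Os05g0129800 came nearest, at 1.78, 1.26 and 1.69 FPKM in ZPR and 0.144, 0.161 and 0.189 in ZMR (adjusted p = 0.0543). Of 118 tested NB-ARC receptors, which sense pathogens, Os05g0492200 rose to 2.63, 3.49 and 3.34 FPKM in ZMR (adjusted p = 0.0247, 0.0865 with the block) and Os03g0689400 fell from 2.31 ± 0.243 to 0.485 ± 0.0374 FPKM (SD, n = 3; adjusted p = 0.0439, 0.177 with the block). Each was 0.847% of the list, beside 0.107% higher and 0.127% lower over all tested loci. At an unadjusted p of at most 0.05, 1 receptor was higher (0.847%) and 6 were lower (5.08%).

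**Figure D5:**
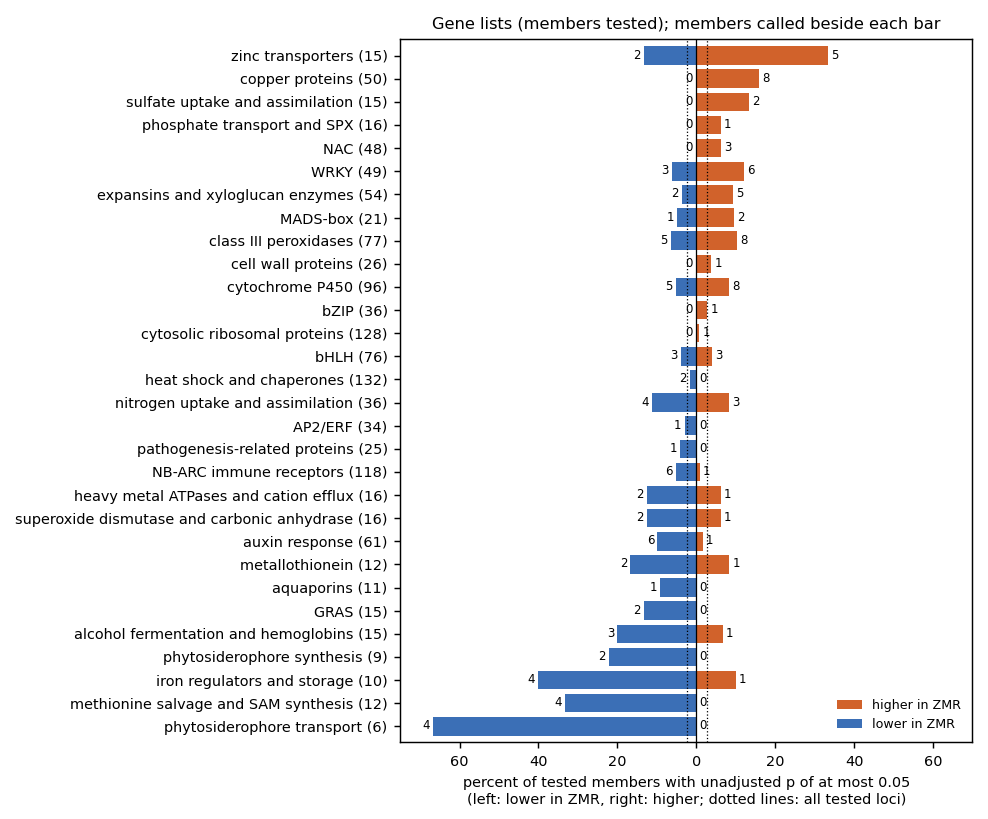
Share of the tested members of each gene list with an unadjusted p of at most 0.05 (x axis, percent), drawn to the right where higher in ZMR and to the left where lower, with the number of members beside each bar. Dotted lines mark all tested loci (2.6% higher, 2.44% lower). The zinc transporters have the longest bar to the right (5 of 15) and phytosiderophore transport the longest to the left (4 of 6). Some other lists have members on both sides, and some on a single side, such as copper proteins (8 higher, 0 lower) and methionine salvage (0 higher, 4 lower). Lists matched by description can hold other proteins. The GRAS bar (0 higher, 2 lower) shows a pre-ATP-grasp and an integrase protein and no GRAS factor.

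Loci of thin annotation stood in both directions. No GO term was given for 5 of the 22 up-regulated and 8 of the 26 down-regulated loci, beside 5545 of all 20491 tested. Os08g0503000, a hypothetical protein on chromosome 8, had 143, 73.1 and 106 FPKM in ZPR and 5.59, 5.80 and 5.13 in ZMR, 19.5-fold lower, the largest fold among the loci that fell and were above 0 in ZMR (-4.12 ± 0.25 SE, limma adjusted p = 0.00489, 0.0694 with the block). Os11g0262600, a conserved hypothetical protein, had 79.5, 48.2 and 74.2 FPKM in ZPR and 15.5, 11.9 and 10.1 in ZMR (-2.37 ± 0.25 SE, adjusted p = 0.0347, 0.0978 with the block). The down-regulated set also held Os01g0495701, from 5.03 ± 0.341 to 0.709 ± 0.0968 FPKM, and the cytochrome P450 Os10g0439924, from 5.64 ± 1.13 to 1.17 ± 0.122 FPKM (SD, n = 3). Their adjusted p-values were 0.00879 and 0.0347, and 0.0865 and 0.141 with the block.

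Among the up-regulated loci of this kind, Os10g0328600 had 0.0953, 0.0308 and 0.215 FPKM in ZPR and 7.50, 6.79 and 5.28 in ZMR (3.51 ± 0.21 SE, limma adjusted p = 0.00489, 0.0865 with the block). Os07g0599500 was the steadiest, at 5.42, 5.36 and 5.33 FPKM in ZPR and 17.2, 19.2 and 18.5 in ZMR (1.68 ± 0.11 SE, adjusted p = 0.00744, 0.0791 with the block). Os03g0793900 rose 2.12-fold and had the smallest change of the 22 (1.04 ± 0.11 SE, adjusted p = 0.0377, 0.145 with the block). Os11g0306400, similar to a herbicide safener binding protein, had 0.867, 0.661 and 0.970 FPKM in ZPR and 5.86, 7.84 and 13.5 in ZMR (adjusted p = 0.0418, 0.116 with the block). Os08g0347000 had 4.94, 5.13 and 6.64 FPKM in ZPR and 25.8, 30.6 and 17.99 in ZMR (adjusted p = 0.0418, 0.209 with the block), and its neighbour Os08g0346900 on the same strand had 2.03, 3.56 and 5.46 in ZPR and 11.3, 20.2 and 11.3 in ZMR (adjusted p = 0.254). The joined locus Os01g0152951;Os01g0152800 was at or under 0.210 FPKM in ZPR and at 1.88, 1.93 and 2.16 in ZMR (adjusted p = 0.0339, 0.159 with the block).

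In 5 of the 48 called loci, all of 1 exon, a whole group was listed at 0, so no fold change is given. The protein kinase Os07g0602700 was at 0 in all ZPR libraries and at 5.85, 7.02 and 7.44 FPKM in ZMR. Os09g0518750 was at 14.0, 11.4 and 17.4 FPKM in ZPR, Os11g0534300 at 13.2, 7.71 and 7.67, Os02g0756850 at 2.00, 2.49 and 2.58 and the non-protein-coding Os06g0505501 at 5.03, 2.00 and 3.36, and all 4 were at 0 in every ZMR library. With the block the limma adjusted p was 0.0546 for Os07g0602700 and for Os09g0518750, and 0.0694 for Os11g0534300. It was 0.0865 for Os02g0756850 and 0.142 for Os06g0505501. A group at 0 adds no spread of its own, so the p-values of these 5 can be too small. They were not tested when loci were limited to those with more than 1 exon, where 23 loci were called higher and 24 lower.

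The GO terms of the called loci repeated these groups. Among terms with 10 to 500 tested loci, those with the most up-regulated loci were zinc ion transmembrane transporter activity (4 of 26) and zinc II ion transmembrane transport (4 of 15). Over all tested loci, 0.107% were called higher and 0.127% lower. Transmembrane transport held 3 down-regulated loci of 110 and no up-regulated one, and transporter activity 3 down and 1 up of 170. The broad term plasmodesma held 3 down and 1 up of 480. Oligopeptide transport held 1 up and 2 down of 47. Oxygen binding and response to hypoxia, to which the hemoglobins belong, held 1 up and 2 down, of 21 and 36 tested loci. Heme binding had 12 of 100 loci higher and 5 lower at an unadjusted p of at most 0.05, beside 2.6% and 2.44% of all tested loci. No other term held more than 3 loci called in 1 direction.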

How the data were processed

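Poly(A) RNA of 3 ZPR and 3 ZMR root pools was sequenced by the authors. Per the labels and methods, TopHat and Bowtie2 aligned the reads to IRGSP-1.0, and Cufflinks and Cuffdiff gave abundances. Multiple alignments were kept. The assembler of the merged loci and the strand are not given in the sources used here. The authors deposited FPKM per locus and isoform and the coverage of each isoform, whose ratio to FPKM gave the depth of a library. In all 20491 tested loci the deposited locus FPKM was the sum of isoform FPKM times length over a fixed length (within 1%).

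For the 6 libraries, limma 3.58.1 (R 4.3.3, trend) compared log2(FPKM + 0.5) between the groups, with no other term. Tables and plots used Python 3.11.15, pandas 2.3.3, numpy 2.4.6 and matplotlib 3.10.9. An exact permutation test of 3 against 3 cannot go below 0.1 and was not run. Deviations of same-numbered libraries from their group means correlated at r = 0.425, 0.142 and 0.121 for replicate numbers 1, 2 and 3. Numbers 2 and 3 also correlated with each other across groups, at 0.144 and 0.210, so only number 1 stood apart. The main fit left the libraries unpaired, and the replicate block treated same-numbered libraries as pairs. The blocked value is given where it ends a call.

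The genes named are the 15 DEGs of smallest p in each direction, the zinc transporters, phytosiderophore synthesis genes and metallothioneins with a mean of at least 10 FPKM, and up to 4 DEGs, or 3 members of smallest p, of other lists. Further DEGs and list members were added after their values were seen. The comparison and the 38 lists were chosen with earlier results of these data known. In simulated ZMR/ZPR data of 20491 loci, the fit called 9, 28, 33 and 37 of 50 loci with log2 changes of 1, 1.5, 2 and 3. It made 3 false calls. The simulated noise was independent between libraries, without the deviation shared by the libraries of replicate 1. Zeros beside high values, as in loci of 1 exon, were not modelled as such. Recovery and false calls in the real libraries can therefore differ. Promoters and proteins were not analysed here.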

Additional observations from a re-analysis of the deposited data

How the results depend on the processing

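Of 22 alternatives, 20 were planned and 2 were added after seeing the data (the sum of isoform FPKM, and both first replicates left out). The 22 higher and 26 lower DEGs became 14 and 14 with no filter on low values, 11 and 3 with the 9 root libraries in the fit, 49 and 55 with all 18 libraries, and 2 and 0 with the replicate block. Leaving out 1 library gave 10 to 25 higher and 3 to 19 lower. Without replicate 1 of both groups there were 30 higher and 18 lower, of which 11 and 5 were among the 48. The causes were not tested. Pseudocounts of 0.1 and 1, a mean of at least 1 FPKM, loci of more than 1 exon, other scalings, zeros as missing or left out, other eBayes settings and isoform sums kept both counts within 1.5 times. Of the 48 DEGs, 2 were called under all alternatives that held them and 5 under all but the block, and none changed sign. With 3 pools per group, changes of 1 on the log2 scale were mostly missed in simulated data with independent noise. A locus that did not pass is therefore not shown to be unchanged. Depth was similar in all libraries and limits only loci near 0.5 FPKM. The p-values rest on the spread between pools.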
